A study of Mus musculus with 19 samples.

Results

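Nfkbia, Nfkbiz and Tnfaip3 are 3 genes that restrain or modify NF-kB signalling, and the accessible regions around them were described in primary mouse bone marrow-derived macrophages. All peaks of a consensus ATAC-seq list that touched a fixed window around each gene were taken, by position alone. ATAC-seq marks open chromatin by the insertion of sequencing adapters with Tn5 transposase. This gave 88 of the 140383 listed peaks: 18 on chromosome 12 from 55510000 to 55590000 around Nfkbia, 21 on chromosome 16 from 55600000 to 55700000 around Nfkbiz, and 49 on chromosome 10 from 18830000 to 19070000 around Tnfaip3, all in mm39. The peaks just inside the borders lay 1417 to 25012 bp from them, with folds of 4.42 to 19.2, and those just outside lay 275 to 8290 bp away, with folds of 6.30 to 15.5.

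The cells came from mice with Csf1r-Cre, which acts in the monocyte and macrophage lineage, and were either wild type at Smarca5 or carried Smarca5lox/lox, here called knockout. SMARCA5 is the motor subunit of ISWI remodellers, which space nucleosomes. Both genotypes carried Cre and received 4-hydroxytamoxifen daily over 7 days of differentiation. Each genotype was untreated, or was stimulated for 1 or 2 h with LPS (10 ng/ml) or interferon beta (100 U/ml). The 19 samples formed 10 groups, with 2 samples in each group except wild type with interferon beta for 1 h, which had 1 sample. The list gave 1 set of values per peak and named no sample, so no effect of genotype, stimulus or time was measured, and no replicate error applies. Depth per sample is unknown. In these bulk data, a peak open in few cells and one weakly open in all cells cannot be told apart.

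NF-kB dimers wait in the cytoplasm of resting macrophages and enter the nucleus after LPS engages its receptor. Nfkbia encodes IkBα, which binds NF-kB, is destroyed on stimulation and is made anew as an NF-kB target, closing a fast negative loop. Nfkbiz encodes IkBζ, an inducible nuclear member of the IkB family that is needed for a class of secondary response genes. Tnfaip3 encodes A20, a ubiquitin-editing enzyme that shuts off signalling upstream of NF-kB. All 3 genes lie on the minus strand, so transcription runs toward lower coordinates. Distances below are counted from the approximate position that the window definition gives for each gene: near 55536200 for Nfkbia, 55631700 for Nfkbiz and 18876700 for Tnfaip3. These positions were taken as the lower ends of the genes, which was not checked against mm39 gene models. On that reading, "below" means past the end of the gene, and "above" means inside it or upstream of it. Peaks were not assigned to exons, introns or promoters, because mm39 gene models were not used here.

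The upstream sequences of Nfkbia and Tnfaip3 are shown because NF-kB acts on these genes through its own DNA motif, the kappaB site. Nfkbiz is left out only because the promoter set used held no sequence for it, so its motifs were not examined. They are the 250 bases before the annotated RefSeq start, read 5′ to 3′ on the minus strand, from the GRCm38.p6 build (chr12:55492648-55492897 for Nfkbia and chr10:19015411-19015660 for the main start of Tnfaip3). That build differs from the peaks' build, so neither sequence was laid over a peak. Capitals mark matches to the kappaB consensus.
Nfkbia: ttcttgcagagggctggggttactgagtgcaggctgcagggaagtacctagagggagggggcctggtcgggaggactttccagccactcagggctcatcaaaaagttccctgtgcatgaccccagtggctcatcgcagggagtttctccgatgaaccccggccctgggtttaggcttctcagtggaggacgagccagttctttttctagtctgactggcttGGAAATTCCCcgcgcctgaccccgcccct
Tnfaip3: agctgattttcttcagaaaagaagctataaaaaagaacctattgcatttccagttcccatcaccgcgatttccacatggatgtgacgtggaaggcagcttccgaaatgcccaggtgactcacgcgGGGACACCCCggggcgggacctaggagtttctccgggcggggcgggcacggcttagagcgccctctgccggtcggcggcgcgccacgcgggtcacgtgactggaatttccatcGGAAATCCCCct

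The Nfkbia sequence held 1 kappaB match, on the minus strand of the sequence as printed, ending 19 bases before the annotated start. The Tnfaip3 sequence held 2, ending 115 and 2 bases before the start. Of 32841 RefSeq promoter sequences of the same length, 7.25% held at least 1 such match on either strand. An AP-1 match (TGANTCA, 6.75% of promoters) was present in Tnfaip3, 129 bases before the start, and overlapped neither kappaB match, while the Nfkbia sequence held 0. GC boxes (GGGCGG, 32.7% of promoters) numbered 1 in Nfkbia and 3 in Tnfaip3, of which 2 overlapped each other. A TATA box (TATAAA, 12.4% of promoters) occurred once in Tnfaip3, 219 bases before the start, and 0 times in Nfkbia. The PU.1 motif (GAGGAAGT, 2.44% of promoters) and the interferon-stimulated response element (2.98%) had 0 matches in either sequence. A further annotated start of Tnfaip3 had 0 matches to any of the 6 motifs in its own 250 bases.

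All 3 loci were dense in accessible regions, at 2.25 peaks per 10 kb around Nfkbia, 2.10 around Nfkbiz and 2.04 around Tnfaip3. Windows of the same 3 lengths laid end to end over the autosomes and X had medians of 0.250, 0.200 and 0.292 peaks per 10 kb and 90th percentiles of 1.62, 1.60 and 1.54. The windows were drawn around genes known to be active in macrophages, so this gives their level only. Peaks covered 8.32% of the Nfkbia window, 6.87% of the Nfkbiz window and 6.09% of the Tnfaip3 window. The Nfkbia peaks were closer together. Their mean width was 370 bp, against 327 bp for Nfkbiz and 298 bp for Tnfaip3, but 1 peak of 1634 bp raised the Nfkbia mean. Median widths were 257, 221 and 234 bp at Nfkbia, Nfkbiz and Tnfaip3, with overlapping intervals. Between neighbouring peaks, the median gap was 2314 bp at Nfkbia, 3232 bp at Nfkbiz and 3372 bp at Tnfaip3.

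Density was not matched by strong enrichment. The authors' fold enrichment, the signal of a peak over its local background, had a median of 8.35 at Nfkbia (95% order-statistic interval 5.24 to 14.3), 7.52 at Nfkbiz (5.07 to 13.3) and 10.96 at Tnfaip3 (8.29 to 14.0). The median of the whole list was 9.85, inside all 3 intervals. Of all listed peaks, 15.0% had a fold of 20 or more, as did 1 of 18 peaks at Nfkbia, 3 of 21 at Nfkbiz and 7 of 49 at Tnfaip3. These shares, 5.56%, 14.3% and 14.3%, had Wilson 95% intervals that all held the share of the list (0.988% to 25.8%, 4.98% to 34.6% and 7.096% to 26.7%). Intervals treat peaks as independent, which neighbours are not.

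**Figure D1:**
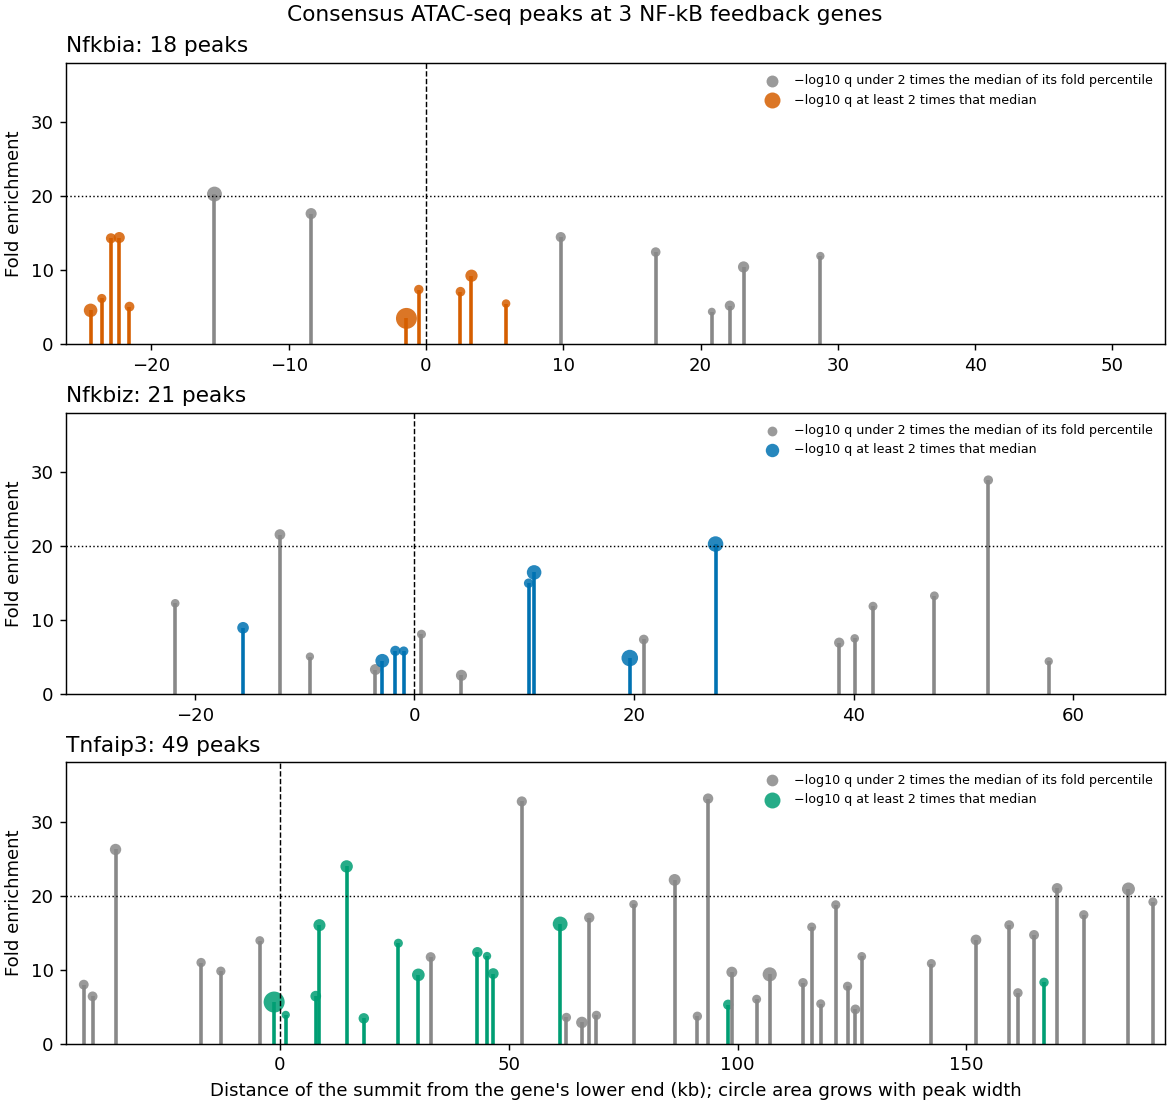
Each stem is 1 peak, placed by the distance of its summit from the gene's lower end (kb, dashed line) with its fold enrichment as height; circle area grows with peak width, and the dotted line marks a fold of 20. Coloured stems, with a −log10 q at least 2 times the median of their fold percentile, number 10 of 18 at Nfkbia, 8 of 21 at Nfkbiz and 14 of 49 at Tnfaip3, and the large circles just left of the dashed line at Nfkbia and Tnfaip3 are the widest peaks.

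The Nfkbia peaks had high statistical support, measured as −log10 q, for their fold. The median −log10 q was 123 at Nfkbia (45.9 to 258), 72.4 at Tnfaip3 (40.9 to 107) and 53.3 at Nfkbiz (29.7 to 87.0), against 45.3 in the list. The interval of Nfkbia lay just above the list's median, and those of the other loci held it. Of the 18 Nfkbia peaks, 15 were at or above the list's median −log10 q, as were 50.0% of all peaks. To hold fold fixed, the −log10 q of each peak was divided by the median of its percentile of fold in the list. This ratio was at least 2 in 21.0% of all peaks, in 10 of 18 at Nfkbia (55.6%, Wilson 33.7% to 75.4%), in 8 of 21 at Nfkbiz (38.1%, 20.8% to 59.1%) and in 14 of 49 at Tnfaip3 (28.6%, 17.8% to 42.4%). The interval excluded the share of the list at Nfkbia, only just held it at Nfkbiz, and held it at Tnfaip3. These intervals too treat peaks as independent. At Nfkbia, all 10 peaks lay in the groups of 5 and 6 neighbouring peaks described below, so the exclusion is weaker than the interval implies. The windows also differ in length. Within 50 kb of the lower ends, the counts were 10 of 18 at Nfkbia, 8 of 19 at Nfkbiz and 11 of 18 at Tnfaip3. That distance was chosen after the values were seen. In that range the share was not lower at Tnfaip3 than at Nfkbia. The median ratios there were 5.44 at Nfkbia, 1.84 at Nfkbiz and 2.35 at Tnfaip3.

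**Figure D2:**
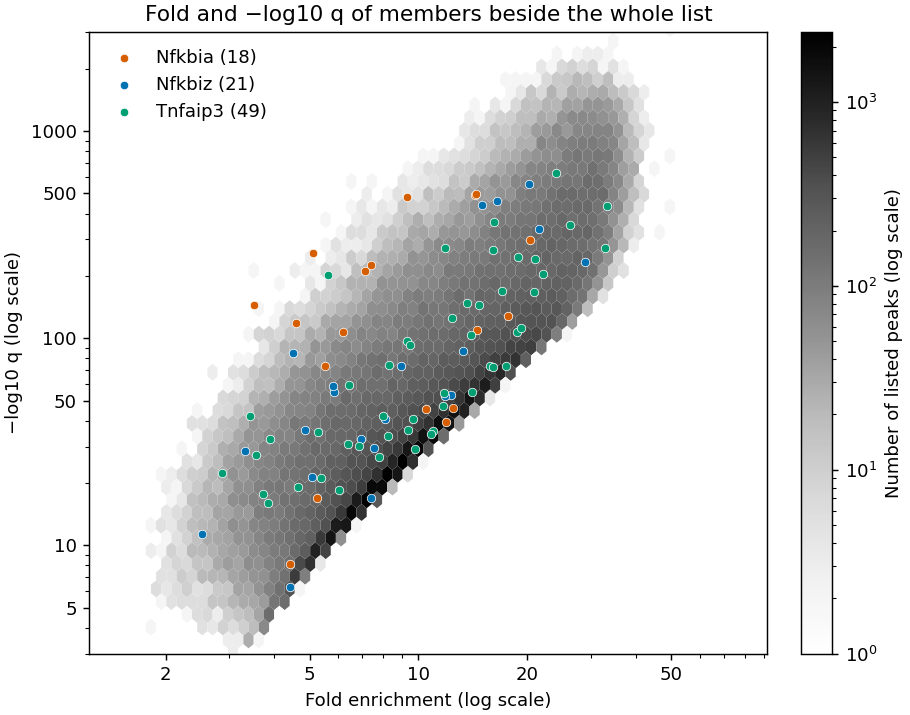
Fold enrichment (x, log scale) against −log10 q (y, log scale), with the whole list as grey hexagons and the 88 peaks as points coloured by gene; list peaks with a −log10 q above 3000 lie outside the axes. Several Nfkbia points have a −log10 q that is high for the fold. Those of fold 3.52, 5.10 and 9.28 reach 9.80, 20.7 and 16.4 times the median of their fold percentiles, while the list itself reaches 1054 times.

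The densest group of Nfkbia peaks lay 21.6 to 24.4 kb below the gene. It held 5 peaks within 3342 bp, from 55511417 to 55514758, with folds of 4.60, 6.21, 14.3, 14.4 and 5.10 in order of position. The peaks from 55513128 to 55513384 and from 55513680 to 55514022 were a near-equal pair: their folds were 14.3 and 14.4, their −log10 q values 493 and 495, and their summits 606 bp apart. The second of the pair had the highest −log10 q of the locus. The last peak of the group, 235 bp from 55514524 to 55514758, had a fold of only 5.10 but a −log10 q of 258, 20.7 times the median for that fold percentile and the highest ratio among the 88 peaks. In the genome order of RefSeq (GRCm38.p6), the next protein-coding gene on this side is Psma6, a proteasome subunit gene. The data did not assign this group to either gene.

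A second group of 6 Nfkbia peaks spanned the gene, from 55533589 to 55546138. Closest to the lower end was a peak of 203 bp at 55535611 to 55535813, 387 bp below it, with a fold of 7.41 and a −log10 q of 226. Inside or upstream of the gene, the peak at 55539212 to 55539666 had a fold of 9.28 and a −log10 q of 483, and the peak at 55538601 to 55538820 had 7.12 and 210. Their −log10 q values were 16.4 and 11.4 times the median of their fold percentiles. They ranked 3 and 7 among the 18 peaks of the locus by −log10 q, although only 46.2% and 28.7% of the list had a lower fold. The 3 highest folds of the locus belonged to other peaks: 20.3 at 55520496 to 55521242, 15.4 kb below the gene and 747 bp wide, 17.7 at 55527633 to 55527975, 8.37 kb below, and 14.5 at 55545882 to 55546138, 9.82 kb above. Their −log10 q ratios were below 2, the highest being 1.94. From 55564988 to the upper border, the window held 0 peaks over 25012 bp. The Nfkbia peaks without a value here ranged in fold from 4.43 to 12.5.

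Wide peaks of low fold sat just below the positions of both Nfkbia and Tnfaip3, past the ends of the genes if these positions are their lower ends. At Nfkbia, a peak of 1634 bp from 55533589 to 55535222 ended 978 bp below the gene, with a fold of 3.52 and a −log10 q of 145. At Tnfaip3, a peak of 1648 bp from 18874371 to 18876018 ended 682 bp below the gene, with a fold of 5.63 and a −log10 q of 203. Only 18 and 14 of the 140383 peaks, respectively, were at least as wide, the peak itself included. Their −log10 q values were 9.80 and 14.4 times the median of their fold percentiles. Both summits lay nearer the gene's side of the peak, at 72.7% and 63.8% of the width counted from the lower edge.

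At Nfkbiz, the same stretch below the gene held a row of narrower peaks in place of a wide one. The 4 peaks from 55627938 to 55630774, were 333, 615, 266 and 197 bp wide, and the last ended 926 bp below the gene. Their folds were 3.31, 4.50, 5.84 and 5.80, and their −log10 q values 28.4, 85.3, 55.04 and 58.6. Each of these folds was lower than the 7.52 median of the locus. The ratios of −log10 q to the median of the fold percentile were 1.84, 6.24, 3.86 and 3.74, all above 1 but lower than at the wide peaks of the other genes.

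The list set these values in context by width. The 18 widest peaks of the list, 1634 to 4526 bp and including these 2, had a median fold of 10.0, with a range of 2.89 to 24.4, and a median −log10 q ratio of 6.35. High support for the fold was thus common at that width. A width of at least 800 bp was reached by 0.984% of listed peaks, and their median fold was 18.8, with quartiles of 15.0 and 23.1. The 3 loci held 4 peaks of at least 800 bp. Besides the peaks at Nfkbia and Tnfaip3, they were a peak of 960 bp in the Nfkbiz window, from 55650689 to 55651648, with a fold of 4.87 and a −log10 q of 36.0, and another there, 826 bp from 55658964 to 55659789, with a fold of 20.3. The position and width of these peaks were noticed in the list and not chosen beforehand.

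**Figure D3:**
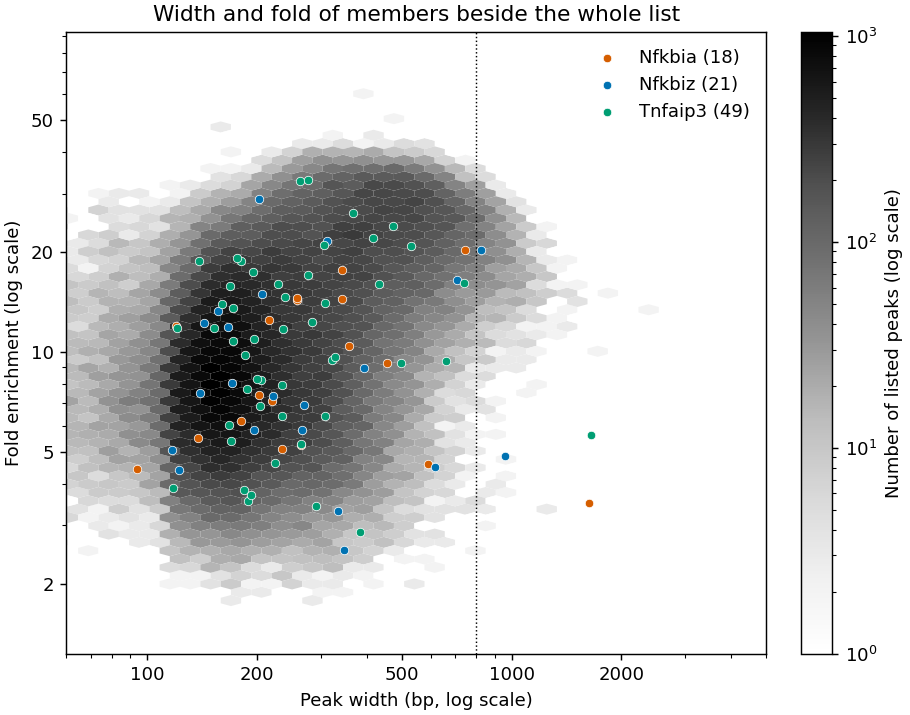
Peak width (x, bp, log scale) against fold enrichment (y, log scale), with the whole list as grey hexagons and the 88 peaks as points coloured by gene; the dotted line marks 800 bp and peaks under 60 bp lie outside the axes. The points of 1634 bp at Nfkbia, 1648 bp at Tnfaip3 and 960 bp at Nfkbiz lie under the median fold of 18.8 of all peaks of at least 800 bp; the 18 widest peaks have a median fold of 10.0.

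Nfkbiz had its best supported peaks above the lower end of the gene. The highest −log10 q, 558, belonged to the 826 bp peak at 55658964 to 55659789, 27.4 kb above the lower end, with a fold of 20.3 and its summit at 18.4% of its width. The next protein-coding gene on this side in the RefSeq order (GRCm38.p6) is Nxpe3, so peaks farther up need not belong to Nfkbiz. A close pair at 10.4 and 10.9 kb, with summits 498 bp apart and a gap of 172 bp, had folds of 15.0 and 16.4 and −log10 q values of 438 and 462. That gap was the smallest between any neighbours in the 3 windows. Nearest to the lower end, 562 bp above it, was a peak of 171 bp at 55632262 to 55632432, with a fold of 8.08 and a −log10 q of 40.6.

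The strongest fold of the Nfkbiz window was distal. It was 28.9, at 55683859 to 55684061, 52.3 kb above the gene's lower end, and 5373 listed peaks had at least that fold. Its −log10 q of 233 came to 0.577 times the median for that fold percentile, so fold and support ranked this peak differently. On the other side, 12.2 kb below the gene, the peak at 55619271 to 55619581 had a fold of 21.5 and a −log10 q of 336. The weakest members were also here: the lowest fold of the 88 was 2.53, at 55635908 to 55636254, and the lowest −log10 q was 6.28, at 55689374 to 55689495. The Nfkbiz peaks without a value here ranged in fold from 5.07 to 13.3.

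The Tnfaip3 window was the longest, 240 kb against 80 kb at Nfkbia and 100 kb at Nfkbiz, and its peak number, reach and split by side follow in large part from its borders. Of its 49 peaks, 7 lay in the 46.7 kb below the gene's lower end and 42 in the 193 kb above it, reaching 191 kb above. Joined across gaps of at most 5000 bp they formed 19 groups, of which the largest held 7 peaks, from 18990886 to 19003887. The longest gaps were 18441 bp, below the gene, and 15049 bp, above 19003887. The next protein-coding genes in the RefSeq order (GRCm38.p6) are Perp, an apoptosis effector of p53, below and Olig3, a transcription factor of neural development, above. The list does not tie any distal peak to a gene.

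The best supported Tnfaip3 peak lay near the gene, while the peak of highest fold lay far from it and ranked 2 in the window by −log10 q. The highest −log10 q of all 88 peaks, 630, was at 18890900 to 18891371, 14.6 kb above the lower end, a peak of 472 bp with a fold of 23.9. It stood among the top 10.0% of the list by both measures, as did the peaks of fold 33.1 and 26.2 in this window. The highest folds of the 88 were 33.1 at 18970116 to 18970392, 93.6 kb above the lower end, and 32.7 at 18929388 to 18929650, 52.8 kb above. At least those folds were reached by 1744 and 1981 listed peaks. Their −log10 q values were 433 and 273, or 0.847 and 0.532 times the median of their fold percentiles. The third highest fold of the Tnfaip3 window was 26.2, at 18840582 to 18840948, 35.9 kb below the gene, with a −log10 q of 351.

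The other Tnfaip3 peaks of fold 20 or more were 22.1 at 18962681 to 18963096, 21.0 at 19046402 to 19046707 and 20.9 at 19061761 to 19062289, all more than 50 kb above the lower end. Nearest to the gene's lower end on the upper side, 1200 bp away, was a narrow peak of 118 bp with a fold of 3.89 and a −log10 q of 32.5. The Tnfaip3 peaks without a value here ranged in fold from 2.87 to 19.2.

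Across the 3 windows, high support for a given fold lay mostly close to the genes. Of 55 peaks within 50 kb of a lower end, 29 had a −log10 q at least 2 times the median of their fold percentile, against 3 of 33 farther away and 21.0% of all listed peaks. The median ratio was 2.33 near and 1.17 far, while the median fold was 9.28 near and 11.8 far. Within the Tnfaip3 window, which supplied 31 of the 33 far peaks, the counts were 11 of 18 near and 3 of 31 far. The distance of 50 kb was chosen after the values were seen, and the Nfkbia window had 0 peaks beyond it.

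Summit positions did not set the loci apart. The summit lay at a median of 50.0% of the peak width at Nfkbia, 53.3% at Nfkbiz and 50.2% at Tnfaip3, against 50.0% in the list, with 95% intervals of 33.6% to 59.9%, 40.8% to 62.8% and 47.5% to 55.2%. Median widths were 257 bp (203 to 358), 221 bp (167 to 347) and 234 bp (195 to 277). The list's median of 196 bp lay below the intervals' lower limit at Nfkbia and inside the intervals at Nfkbiz and Tnfaip3.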

How the data were processed

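The authors deposited 1 consensus peak list for 19 ATAC-seq samples. Per the submitters' processing notes, the build was mm39 and the tools included MACS2 2.2.7.1, deepTools 3.5.1, Picard 2.27.4 and STAR 2.7.9a. What each did, any read shifting, the threshold and how samples were joined are not given in the sources. The deposited columns were read in the narrowPeak layout as score, fold ratio over local background, −log10 q and summit offset. Starts were read as counted from 1, since 0 summit offsets then reached the width, against 74 counted from 0.

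The windows fixed the members, and 0 columns of per-sample values were left unused. The members, windows and lists were chosen with earlier results of these data known. Named peaks are the 3 highest folds, the highest −log10 q, the widest and the nearest to the gene in each window, and those in the top 10% by fold; others were named after their values were seen. Motifs were exact matches on both strands. Functions were tested on simulated data. The tools were scipy 1.17.1, numpy 2.4.6, pandas 2.3.3 and, for plots, matplotlib 3.10.9, in Python 3.11.15. No test between groups was possible. Planned lists of NF-kB pathway genes and cell type markers were not used, since the gene table used is of another build.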

Additional observations from a re-analysis of the deposited data

How the results depend on the processing

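Of 91 alternative values, 65 stayed within the interval of the main value or, for counts, within 1.5 times it, and 26 did not. Of the values that stayed, 18 came from merging touching peaks, which could move nothing, since the smallest gap in the windows was 172 bp. Shortening each window by 10% at both ends moved none of the peak numbers, densities, widths, folds, −log10 q values and shares of fold 20 or more. With only peaks at or above the list's median −log10 q, Nfkbiz had 12 peaks (1.20 per 10 kb) and Tnfaip3 29 (1.21 per 10 kb), below the 90th percentile given for windows of all peaks, and at Tnfaip3 the median fold was 16.0 and the median −log10 q 145. These follow from removing weak peaks. With strong peaks defined as the top 10% by fold, the share was 0% at Nfkbia and 4.76% at Nfkbiz. Joining peaks across 2000 bp gave 10 groups at Nfkbia and 33 at Tnfaip3, and across 10000 bp 1, 2 and 3 groups at Nfkbia, Nfkbiz and Tnfaip3. With 1 mismatch allowed, the Nfkbia sequence held 7 kappaB, 1 AP-1, 1 ISRE, 1 TATA box and 8 GC box matches, the main Tnfaip3 start 9 kappaB, 1 ISRE, 2 TATA box and 6 GC box matches, and the other start 2 kappaB, 2 AP-1, 2 TATA box and 1 GC box match, so only the exact counts are used. The number of bins of fold, 20 or 500 in place of 100, was an alternative chosen after seeing the data and moved no count of peaks with high −log10 q for their fold by over 1.5 times. No paired analysis was possible because no replicate has values of its own. Since depth is unknown, a stretch with 0 peaks may be closed or too thinly sampled.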

Other observations

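Many deposited scores were not whole numbers. The score became whole only when multiplied by 20 in 14.6% of listed peaks, and in 5 of 18 peaks at Nfkbia (27.8%, Wilson 12.5% to 50.9%), 4 of 21 at Nfkbiz (19.05%, 7.67% to 40.0%) and 8 of 49 at Tnfaip3 (16.3%, 8.51% to 29.0%). All 3 intervals held the share of the list. These peaks included the Nfkbia peaks with −log10 q of 495 and 483 and the Tnfaip3 peak with 630. The wide peaks just below Nfkbia and Tnfaip3 needed only the multipliers 2 and 8.

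Low folds took a somewhat larger share of the members than of the list. The pooled interval only just missed the list's share and treats neighbouring peaks as independent, so counting error was not excluded. A fold under 5 was listed for 10.4% of all peaks and for 15 of the 88 (17.0%, Wilson 10.6% to 26.2%). By locus, it was listed for 3 of 18 peaks at Nfkbia (Wilson 5.84% to 39.2%), 5 of 21 at Nfkbiz (10.6% to 45.1%) and 7 of 49 at Tnfaip3 (7.096% to 26.7%). The list's share lay inside the intervals of Nfkbia and Tnfaip3 and just under that of Nfkbiz.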
